A study of Homo sapiens with 26 samples.

Results

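The genes of the mitochondrial respiratory chain were followed in the A549 line, derived from a human lung adenocarcinoma, through 72 h with TGF-beta 1. Genes were taken by their names: every gene with 1 symbol on the array that starts with NDUFA, NDUFB, NDUFC, NDUFS, NDUFV, SDH, UQCR, COX4, COX5, COX6, COX7, COX8 or ATP5. This gave 87 of the 19578 genes with 1 symbol, on 155 probe sets, and each gene was read from whichever of its probe sets had the highest mean of the 26 arrays. Of the 87, 36 encode subunits of complex I, 4 of complex II, 7 of complex III, 17 of complex IV and 15 of complex V. The other 8 share the name only: they are assembly factors, pseudogenes, a paralogue, a factor that joins complexes and COX4NB, a gene named for its place beside COX4I1. On 2 or more arrays 82 of the 87 exceeded the median of the array, and these 82 were tested among 14929 genes.

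The cells of all groups were A549. Per the labels, they were held without serum for 24 h and given porcine TGF-beta 1 at 5 ng/mL, a cytokine under which epithelial cells take on mesenchymal features. RNA of untreated cells and of cells after 0.5, 1, 4, 8, 16, 24 and 72 h went onto 3 arrays each, and that of cells after 2 h onto 2. Each number of the labels stands for 1 repeat of the experiment. Untreated cells held in culture for the same times were not analysed here, so that treatment and time in culture cannot be told apart. The study asked how gene expression changes over the course of the treatment.

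The respiratory chain moves electrons from NADH and succinate to oxygen and pumps protons across the inner mitochondrial membrane, and ATP synthase uses the proton gradient to make ATP. Complex I takes electrons from NADH, complex II from succinate, and both pass them to ubiquinone. Complex III hands them to cytochrome c, complex IV to oxygen, and complex V is ATP synthase. Most subunits are encoded in the nucleus, and a few of complexes I, III, IV and V in mitochondrial DNA. Most of the nuclear genes for these subunits are active in nearly all cell types, and some isoforms of complex IV only in certain tissues.

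Levels are given as log2, with zero signal at 6.64, the floor at 5.64 and the median of every array at 7.96. The authors added an offset of 100 before taking logs, which understates the changes of weakly expressed genes. A change is the difference in mean level between groups with limma's standard error (SE), a gene is called when its p-value adjusted over the 14929 genes by the Benjamini-Hochberg method is under 0.05, and lower and higher mean against untreated cells.

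Between 28834 and 32875 probe sets were detected per array. The keratins KRT18 and KRT8, markers of epithelium, had mean levels of 15.2 and 14.57 in untreated cells, whereas PTPRC, the common marker of blood cells (7.30), and CDH5, the cadherin of endothelium (6.74), lay below the array median. Of 6 blood cell and 5 endothelial markers 3 each passed the filter, and their levels in untreated cells were at most 8.29. Of 6 epithelial markers tested, 4 fell at 72 h, the cadherin CDH1 (log2 change -4.26), TACSTD1 (-2.72), KRT8 (-0.33) and KRT18 (-0.27). The keratin KRT7 rose by 0.61 and the tight junction protein CLDN1 by 1.31, and KRT19 (6.81 in untreated cells) did not pass the filter. The actin ratio, the signal of the 3' end of actin mRNA over that of its 5' end and a measure of RNA quality, was 1.10 ± 0.0298 in untreated cells (SD, n = 3), 1.00 ± 0.0264 at 24 h (n = 3) and 1.01 ± 0.0337 at 72 h (n = 3). This ratio moved with time, as did the genes below, and its part in the results was not tested. The authors numbered the 72 h arrays 25 to 27, after those of all other times, so that array order and the 72 h group cannot be told apart. From 0.5 to 24 h the numbers also rise with time within each experiment (2 to 8, 10 to 16 and 18 to 24). Within an experiment, array order and time thus cannot be told apart. RNA came from whole cultures, in which fewer cells of a kind and less RNA per cell cannot be told apart.

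Respiratory chain genes were called lower late in the course, in the largest number at 72 h. At 72 h, 47 of the 82 were called lower and 1 higher, against 19.9% of all genes tested called lower and 18.2% called higher. The 47 make up 57.3% of the 82. At 24 h, 26 were lower and 1 higher (all genes: 20% lower, 15.2% higher), and at 16 h 24 were lower and 1 higher (18.5% lower, 15.1% higher). With each array centred on the median of the genes tested, 15.9% of the 82 were lower at 16 h and 13.4% at 24 h, beside 15.8% and 16.2% of all genes, so that the larger share at these times depends on the scaling. At 72 h the centred shares were 40.2% and 17.7%. At 8 h 4 were lower and 1 higher, smaller shares than the 11.6% and 11.4% of all genes called lower and higher then. These counts include genes that share the name only. Of the 75 tested subunit genes alone, 45 (60%) were lower at 72 h and 24 (32%) at 24 h, and none was higher at either time.

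None of the 82 was called by limma at 0.5, 1, 2 or 4 h, or between 4 h and 1 h. At an unadjusted p under 0.05 there were 0, 1, 0 and 2 at those times, and 0 between 4 h and 1 h. Of all genes, 0.134%, 0.543%, 3.02% and 9.15% were called at 0.5, 1, 2 and 4 h, and 1.75% between 4 h and 1 h. The median change of the 82 genes went from -0.07 at 8 h to -0.12 at 16 h, -0.13 at 24 h and -0.21 at 72 h, beside -0.03, -0.04, -0.05 and -0.02 over all genes. At 72 h 70 of the 82 changes were below zero, beside 7815 of 14929 for all genes.

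**Figure D1:**
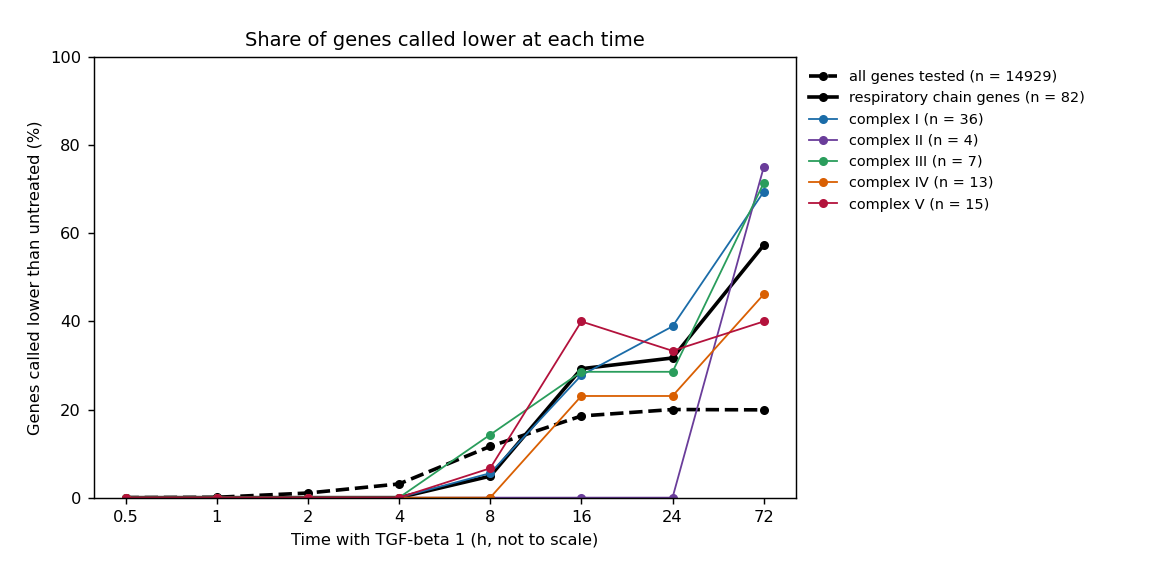
Percent of tested genes called lower than untreated cells (vertical axis, adjusted p under 0.05) at each time in h (horizontal axis, not to scale), for all genes tested, the respiratory chain genes and each complex, with the number of genes tested in the legend. All lines lie near zero until 4 h, and at 72 h the respiratory chain genes stand at 57.3% and all genes at 19.9%. The line of the respiratory chain genes includes those that share the name only.

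Individual arrays showed the same lowering at 72 h in most of these genes. For 52 of the 82, all 3 arrays at 72 h lay below all 3 untreated arrays, which held for 25.4% of all genes tested, and for 3 they lay above (24% of all genes). Against the untreated array of the same experiment, 60 of the 82 were lower in each of the 3 experiments and 6 were higher in each, beside 32.8% and 29.8% of all genes. The median change was -0.19 in experiment 1, -0.31 in experiment 2 and -0.15 in experiment 3. Deviations of untreated replicate 2 correlated with the treated arrays of experiment 3 (median r 0.32) and not with those of its own number (-0.20), so that the pairing is in doubt. For untreated replicate 3 the median r was 0.03 with experiment 2 and -0.02 with experiment 3, so it matched neither. The authors numbered untreated replicate 2 as array 17, and the 0.5 to 24 h arrays of experiment 3 run from 18 to 24. Untreated replicate 3 was array 9, and those of experiment 2 run from 10 to 16. With untreated replicates 2 and 3 exchanged, 66 were lower in each and 6 higher, beside 32.4% and 29.3% of all genes, and the medians of experiments 2 and 3 were -0.25 and -0.19. For 52 of the 82 genes the lowest of the 9 group means was that at 72 h, which held for 19.9% of all genes. All times are set against the same 3 untreated arrays, so that the counts at different times are not independent.

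The counts at earlier times moved with single arrays. Leaving out 16 h replicate 1 left 16 calls at 16 h, and leaving out 24 h replicate 1 left 16 at 24 h. At 8 h the count was 1 without 8 h replicate 2, 2 without untreated replicate 1, 3 without 8 h replicate 1, untreated replicate 2 or untreated replicate 3, and 8 without 24 h replicate 3. With each array centred, 2 were higher and 13 lower at 16 h, 3 higher and 11 lower at 24 h, and 0 higher and 2 lower at 8 h. With only the 2 groups compared in the fit, 10 were called at 16 h, 14 at 24 h and 2 at 8 h. At 72 h the count stayed between 38 and 51 when any 1 array was left out.

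**Figure D2:**
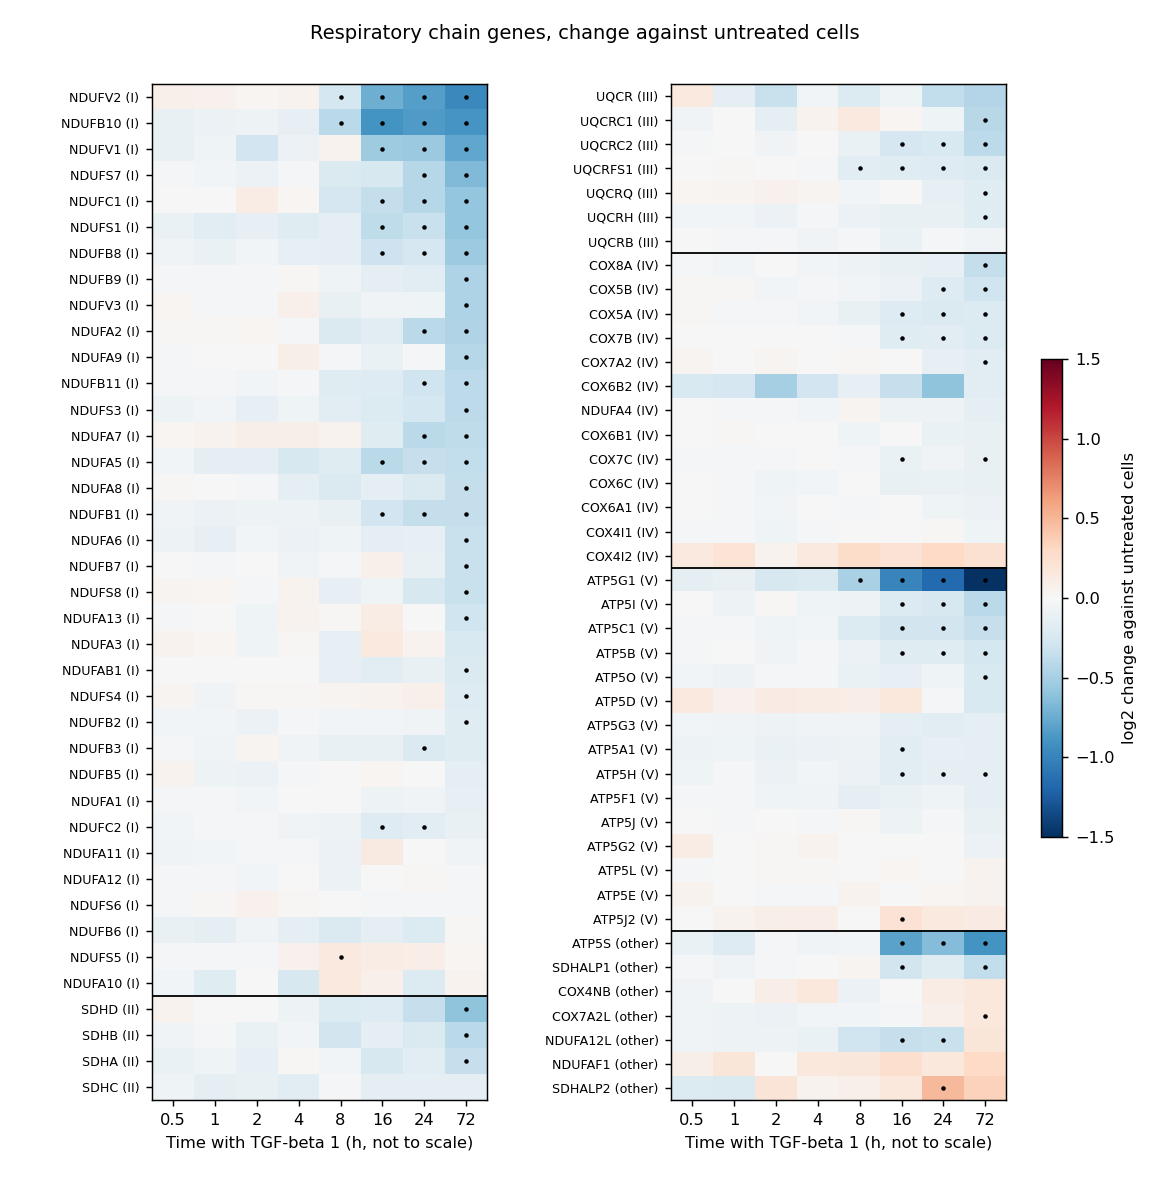
Log2 change against untreated cells (colour, blue lower and red higher) of tested genes (rows, complex in brackets, sorted within a complex by the change at 72 h) at 8 times in h (columns, not to scale). Dots mark an adjusted p under 0.05, and they begin at 8 h and are most frequent at 72 h.

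In complex I, the entry point for electrons from NADH, 25 of the 36 tested subunits fell at 72 h and none was called higher, with a median change of -0.34. At 16 h 10 (27.8%) and at 24 h 14 (38.9%) had been lower, beside 18.5% and 20% of all genes. These counts were not centred, and over the 82 genes the larger share at these times depended on the scaling. Beside the counts at 72 h, here and in the other complexes, stand the 19.9% of all genes called lower. The core subunits described here, NDUFV1, NDUFV2, NDUFS1, NDUFS3, NDUFS7 and NDUFS8, carry the flavin or iron-sulphur centres or lie beside them, and each fell at 72 h, with changes from -0.97 to -0.33. The 29 accessory subunits had a median change of -0.30. Core and accessory subunits were not tested against each other.

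NDUFV2, an iron-sulphur subunit beside the NADH site, changed most among these core subunits. Its levels were 13, 13.20 and 13.10 on the untreated arrays, 12.35, 12.32 and 12.42 at 16 h, 12.26, 12.16 and 12.40 at 24 h and 12.06, 12.13 and 12.20 at 72 h. All arrays from 16 h on lay below all untreated arrays, and neighbouring late groups overlapped. The change was -0.97 ± 0.09 (SE, n = 3 and 3) at 72 h, with an adjusted p of 6.32e-09 by limma, and -0.83 ± 0.09 at 24 h.

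NDUFV1, the flavoprotein that binds NADH, had levels of 13.26, 13.39 and 13.03 in untreated cells, 12.50, 12.55 and 12.95 at 24 h and 12.51, 12.39 and 12.44 at 72 h. Both late groups lay below all untreated arrays, and the third array at 24 h came close to the lowest of them. It fell by 0.78 on the log2 scale at 72 h (SE 0.14, adjusted p 0.000117 by limma, n = 3). NDUFS7, an iron-sulphur subunit that hands electrons to ubiquinone, stood at 11.76, 11.88 and 11.63 in untreated cells and at 11.14, 11.10 and 11.05 at 72 h. It fell by 0.66 (adjusted p 0.000923 by limma), and its 3 arrays at 72 h spread over less than the distance to the untreated arrays.

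Further core subunits fell at 72 h by 0.57 (NDUFS1, the largest iron-sulphur subunit), 0.39 (NDUFS3) and 0.33 (NDUFS8). A second, weaker probe set of NDUFS1 gave a larger change of -2.82 ± 0.23, so that the sets of this gene differ in size and share the direction. The weaker sets of NDUFS8 gave smaller changes of -0.11 and -0.15 and were not called.

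NDUFB10, an accessory subunit of the membrane arm, was lower from 8 h on, as were NDUFV2, UQCRFS1 and ATP5G1. The call at 8 h was lost in 4 of 40 alternative settings for NDUFB10 and ATP5G1 and in 8 for NDUFV2. Its untreated levels were 13.47, 13.16 and 13.22, and those at 8 h were 12.95, 12.95 and 12.75. At 16 h they were 12.35, 12.68 and 12.12, and at 72 h 12.30, 12.44 and 12.44. The arrays at each of these times lay below all untreated arrays. The change was -0.40 ± 0.13 at 8 h (adjusted p 0.0281 by limma), -0.90 at 16 h, -0.85 at 24 h and -0.89 at 72 h, so most of it was present by 16 h.

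Other accessory subunits showed different courses. NDUFC1 changed by -0.43 at 24 h and -0.58 at 72 h, and NDUFB1 by -0.36 and -0.35. NDUFA9, with levels of 12.60, 12.44 and 12.73 at 24 h and 12.26, 12.11 and 12.22 at 72 h, changed by -0.03 at 24 h, which was not called, and by -0.42 at 72 h. NDUFV3, next to the NADH site, had untreated levels of 11.40, 11.54 and 11.55, levels of 11.46, 11.41 and 11.43 at 24 h and of 10.95, 11.01 and 11.13 at 72 h. In NDUFA9 and NDUFV3 the arrays at 72 h lay below all those at 24 h.

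Of the 11 tested complex I subunits not called at 72 h, NDUFS5 (0.03), NDUFS6 (-0.02), NDUFA12 (-0.02) and NDUFB6 (0.02) had changes near zero. NDUFS5 was the only one of the 82 called higher at 8 h, with levels of 14.21, 14.16 and 14.16 against 13.96, 14.08 and 14.05 (change 0.14 ± 0.05, adjusted p 0.0375 by limma). That call was lost in 11 of 40 alternative settings, among them median centring and the fits without any 1 of the 8 h arrays, untreated replicate 1 or untreated replicate 3. It was not called at later times. The chosen probe set of NDUFA10 was weak, with a mean untreated level of 8.93 and a change of 0.05 at 72 h. A stronger set, at 13.07 in untreated cells, carries a second gene symbol and was outside the rule, and it changed by -0.51 ± 0.08 (adjusted p 3.41e-05 by limma, fitted with all probe sets).

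**Figure D3:**
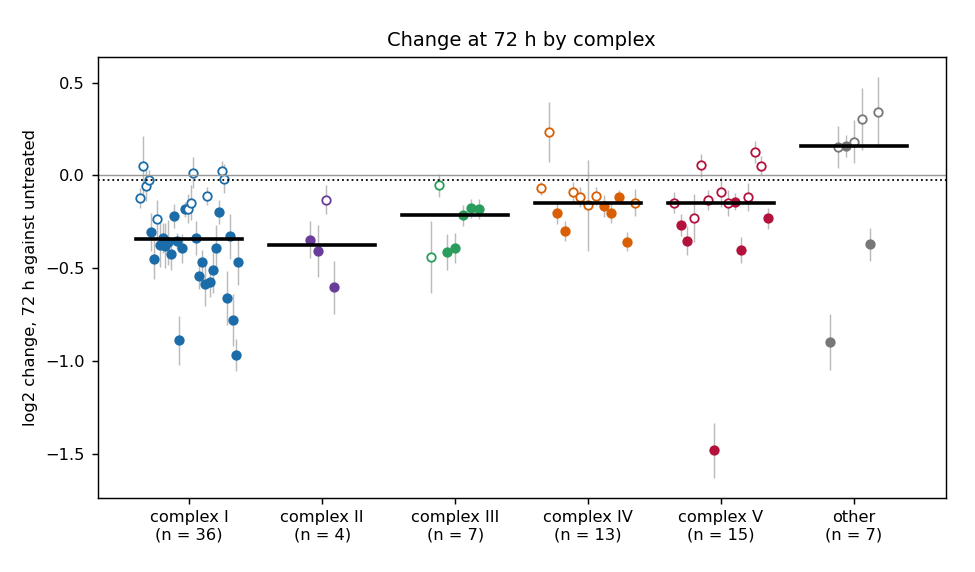
Log2 change at 72 h against untreated cells (vertical axis) of each tested gene, by complex (horizontal axis, n tested). Points are limma's estimates with 1 SE, filled where the adjusted p was under 0.05. Bars are medians, and the dotted line is the median of all genes (-0.02). The medians of complexes I and II lie at -0.34 and -0.38 and those of IV and V at -0.15. Complexes differ in signal level and were not tested against each other.

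Complex II, succinate dehydrogenase, is encoded by 4 nuclear genes alone. The flavoprotein SDHA fell by 0.35 at 72 h, the iron-sulphur subunit SDHB by 0.41 and the membrane anchor SDHD by 0.60, while the anchor SDHC changed by -0.13 ± 0.08 and was not called. Other probe sets of SDHC differed. A set at 10.24 in untreated cells changed by -0.47 ± 0.18 and was called lower (adjusted p 0.0453 by limma, fitted with all probe sets). A set at 12.41 changed by 0.08 ± 0.11 and was not called. SDHD stood at 13.01, 13.31 and 13.33 in untreated cells, 12.68, 12.73 and 13.20 at 24 h and 12.60, 12.55 and 12.70 at 72 h. Its arrays at 72 h lay below all untreated ones, and those at 24 h overlapped with them. None of the 4 was called by limma at 24 h, when 1 had an unadjusted p under 0.05. SDHA is nearly identical to its pseudogenes, so that the share of signal from SDHALP1, which fell by 0.37, cannot be told apart from its own.

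In complex III, 5 of the 7 tested subunits fell at 72 h, with a median of -0.21 over the 7. UQCRC1, one of the large matrix proteins of the complex, had levels of 13.38, 13.47 and 13.12 in untreated cells, 13.26, 13.22 and 13.30 at 24 h and 12.90, 12.90 and 12.92 at 72 h. The arrays at 72 h lay below those of both other groups, which overlapped with each other. UQCRC1 fell by 0.41 ± 0.10 against untreated cells and by 0.35 ± 0.10 against 24 h (adjusted p 0.00158 and 0.0252 by limma). UQCRC2 fell by 0.39 and UQCRH by 0.18, and UQCRFS1, the Rieske iron-sulphur protein, changed by -0.15 at 8 h and -0.21 at 72 h. UQCR was read from a weak set (8.60 in untreated cells, change -0.44, not called), and a stronger set that also names TMEM54 changed by 0.03.

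In complex IV, cytochrome c oxidase, 6 of the 11 tested ubiquitous subunits fell at 72 h, by 0.12 (COX7C) to 0.36 (COX8A). COX8A had levels of 14.17, 14.11 and 14.04 in untreated cells and 13.81, 13.68 and 13.76 at 72 h, with no overlap (adjusted p 1.01e-05 by limma). COX5B fell by 0.30, COX5A and COX7B by 0.20 each and COX7A2 by 0.17. The call of COX7A2 was lost in 9 of 40 settings, among them median centring and the fits without untreated replicate 2 or 3 or without 72 h replicate 1 or 2. COX4I1, at 14.56, 14.69 and 14.58 in untreated cells and 14.55, 14.51 and 14.57 at 72 h, overlapped between the groups (change -0.07 ± 0.03, adjusted p 0.13 by limma). A weak second set of COX4I1 changed the other way, by 0.67 ± 0.19, and was called higher (adjusted p 0.007 by limma, fitted with all probe sets). COX6A1 (-0.09), COX6B1 (-0.12), COX6C (-0.11) and NDUFA4 (-0.15), a subunit first taken for one of complex I, were not called; with the experiment number as a block, NDUFA4 was called lower (adjusted p 0.0312).

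Complex IV has isoforms that certain tissues express. COX6A2 and COX7A1, the forms of heart and muscle, and COX7B2 and COX8C, forms of the testis, were not above the filter, and neither was NDUFA4L2, a paralogue of NDUFA4. Over all 26 arrays the levels of these 5 genes lay between 5.64 and 7.94, below the array median of 7.96. COX4I2, the form known from lung, had untreated levels of 8.42, 8.15 and 8.57 and levels of 8.60, 8.56 and 8.68 at 72 h, which differed by 0.23 ± 0.16 and were not called. COX6B2, another testis form, changed by -0.16 ± 0.24 and was not called.

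In complex V, 6 of the 15 tested subunits fell at 72 h, with a median of -0.15 over the 15. ATP5G1 had the largest change of all 82 genes. It is 1 of 3 genes that encode the same mature subunit c, the protein of the rotor ring in the membrane. Its levels were 13.04, 13.18 and 13.14 in untreated cells and 12.54, 12.49 and 12.87 at 8 h. They were 11.98, 12.05 and 12.36 at 16 h, 11.78, 11.77 and 12.32 at 24 h and 11.64, 11.54 and 11.74 at 72 h. From 8 h on all arrays lay below all untreated arrays, and experiment 3 was the highest of its group at each of these times. The change was -0.49 ± 0.15 at 8 h, -1.16 ± 0.15 at 24 h and -1.48 ± 0.15 at 72 h (adjusted p 0.018, 1.44e-06 and 4.32e-08 by limma), the last a 2.79-fold lower signal.

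Read from their chosen probe sets, the other genes for subunit c were not called at any time. ATP5G2 stood at 14.05, 13.92 and 13.71 in untreated cells and at 13.84, 13.83 and 13.75 at 72 h, and the groups overlapped (change -0.09 ± 0.08). ATP5G3 stood at 14.38, 14.47 and 14.29 and at 14.26, 14.16 and 14.29, with a change of -0.15 ± 0.07 (adjusted p 0.104 by limma). A further set of ATP5G3, at 14.34 in untreated cells, changed by -0.19 ± 0.07. That set was called lower (adjusted p 0.0242 by limma, fitted with all probe sets). A weaker set of ATP5G3, at 10.20, changed by -0.21 ± 0.30 and was not called. Whether the 3 genes differ in their change was not tested. The mean of the 2 ATP5G2 sets, one of which lay below the array median, changed by 0.44 in the opposite direction and was called higher.

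**Figure D4:**
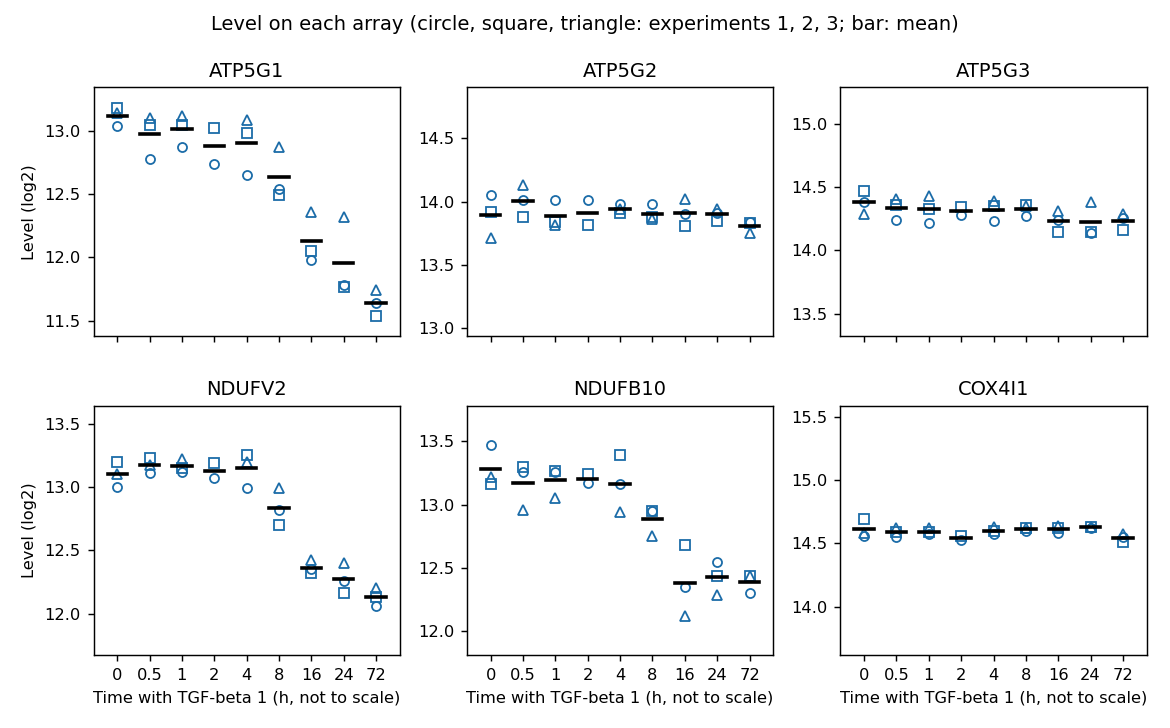
Level (log2, vertical axis, each panel spanning the same range) on every array at 0 to 72 h (horizontal axis, not to scale) for the 3 genes of subunit c, for NDUFV2 and NDUFB10 of complex I and for COX4I1 of complex IV. Circles, squares and triangles are experiments 1, 2 and 3 and bars are group means; ATP5G1, NDUFV2 and NDUFB10 drop between 4 and 16 h while the other 3 panels stay within a narrow band.

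In the catalytic head of ATP synthase, ATP5B, the beta subunit with the catalytic site, fell by 0.27 and ATP5C1, the gamma subunit of the rotor stalk, by 0.35. ATP5A1, the alpha subunit, changed by -0.15 ± 0.06 (adjusted p 0.0502 by limma) and was not called at 72 h, and ATP5D (-0.23 ± 0.13) and ATP5E (0.05 ± 0.06) were not called either. Subunit e (ATP5I) fell by 0.40, and ATP5O and ATP5H of the peripheral stalk by 0.23 and 0.14. ATP5J2, subunit f, was the only one of the 82 called higher at 16 h. Its levels were 14, 14.13 and 13.94 against 13.73, 13.83 and 13.87 (change 0.21 ± 0.06, adjusted p 0.00852 by limma). The call was lost in 4 of 39 settings, among them those without untreated replicate 1 or 16 h replicate 2. At 72 h ATP5J2 was not called (0.13 ± 0.06).

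The promoters of 70 of the 87 genes were found in the RefSeq table for GRCh38.p14, with 84 start sites. The 250 bases before each start were searched on both strands for the letters of 3 motifs, those of NRF1 and of ETS factors, known activators of respiratory genes, and the CCAAT box. GCGCANGCG, the letters of the NRF1 site, occurred in 20 of the 84 windows (23.8%) and in 6.56% of all 35116 windows of that length. CCGGAAG, the letters of an ETS site such as GABP binds, occurred in 19 (22.6%) and in 8.52% of all windows, and CCAAT in 26 (31%) and in 32% of all windows. Matches of different motifs overlapped in 0 of the 84 windows. Shown are the windows of ATP5G1, the 3 complex I genes with the largest changes at 72 h and SDHD, the complex II gene with the largest, with matches in capitals.
ATP5G1 (ATP5MC1), chr17:48892537-48892786, + strand: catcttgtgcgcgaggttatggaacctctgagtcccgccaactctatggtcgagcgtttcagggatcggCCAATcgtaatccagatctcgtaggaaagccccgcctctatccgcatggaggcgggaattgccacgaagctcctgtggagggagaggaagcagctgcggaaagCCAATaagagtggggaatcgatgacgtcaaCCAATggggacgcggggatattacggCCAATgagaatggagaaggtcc
NDUFV2, chr18:9102449-9102698, + strand: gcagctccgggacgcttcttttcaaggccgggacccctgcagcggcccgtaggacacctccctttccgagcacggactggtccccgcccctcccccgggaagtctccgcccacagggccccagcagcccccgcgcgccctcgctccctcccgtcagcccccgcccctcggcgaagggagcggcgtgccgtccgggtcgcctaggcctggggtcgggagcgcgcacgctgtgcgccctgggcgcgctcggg
NDUFV1, chr11:67606686-67606935, + strand: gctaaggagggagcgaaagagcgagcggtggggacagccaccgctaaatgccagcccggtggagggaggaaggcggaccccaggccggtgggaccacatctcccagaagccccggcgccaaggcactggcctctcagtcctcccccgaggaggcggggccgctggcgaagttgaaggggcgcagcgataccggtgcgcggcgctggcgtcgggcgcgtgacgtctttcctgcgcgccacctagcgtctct
NDUFB10, chr16:1959288-1959537, + strand: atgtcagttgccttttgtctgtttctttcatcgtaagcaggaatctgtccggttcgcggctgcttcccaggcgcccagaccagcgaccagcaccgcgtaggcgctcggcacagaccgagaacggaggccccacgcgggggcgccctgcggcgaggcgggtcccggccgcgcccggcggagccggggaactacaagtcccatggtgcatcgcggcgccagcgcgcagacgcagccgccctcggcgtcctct
SDHD, chr11:112086623-112086872, + strand: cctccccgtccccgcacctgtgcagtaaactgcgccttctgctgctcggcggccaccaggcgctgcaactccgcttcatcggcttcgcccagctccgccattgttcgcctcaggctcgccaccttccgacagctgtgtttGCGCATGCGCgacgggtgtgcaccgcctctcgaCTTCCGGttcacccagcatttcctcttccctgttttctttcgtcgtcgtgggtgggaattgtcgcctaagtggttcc
The window of ATP5G1 holds 4 CCAAT matches and none of the other motifs, that of SDHD 2 overlapping matches of GCGCANGCG, one on each strand, and 1 of CCGGAAG, and those of NDUFV2, NDUFV1 and NDUFB10 none of the 3. A match is a run of letters and was not measured as a binding site. The current symbol of ATP5G1 is ATP5MC1. Among the genes not in the table were ATP5B, ATP5D, ATP5G3, ATP5J2, ATP5S, COX4I2, COX6C, COX7A1, NDUFB5, NDUFB9, NDUFC2, NDUFS5, SDHALP1, SDHALP2, SDHC and UQCRB.

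Among the 8 genes that share the name only, ATP5S, known as coupling factor B and as an assembly factor, fell by 0.90 ± 0.15 at 72 h. Its levels were 11.50, 11.16 and 11.09 in untreated cells, 11.23, 11.24 and 11.16 at 8 h and 10.45, 10.32 and 10.29 at 72 h. The groups at 0 and 8 h overlapped, and that at 72 h lay below both. COX7A2L, which joins complexes III and IV into supercomplexes, was the only one of the 82 called higher at 72 h. Its levels of 13.38, 13.36 and 13.28 lay above the untreated 13.21, 13.19 and 13.15, and the change was 0.16 ± 0.06 (adjusted p 0.0371 by limma). The call was lost in 9 of 40 settings, among them no filter, no trend and the fits without untreated replicate 2 or 3 or without 72 h replicate 1 or 2.

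NDUFA12L, an assembly factor of complex I now named NDUFAF2, was lower at 16 and 24 h and not at 72 h. Its levels were 11, 10.76 and 10.97 in untreated cells, 10.56, 10.60 and 10.55 at 24 h and 11.04, 11.07 and 11.16 at 72 h. From 24 to 72 h it rose by 0.52 ± 0.11 (adjusted p 0.00588 by limma). The pseudogene SDHALP2 was the only one of the 82 called higher at 24 h, with 10.27, 10.40 and 10.46 against 9.96, 9.59 and 10.12 (0.49 ± 0.19, adjusted p 0.0479 by limma), a call lost in 22 of 40 settings, among them the fits without any 1 of the arrays at 24 h. NDUFAF1, an assembly factor of complex I (0.30 ± 0.17), and COX4NB (0.15 ± 0.11) were not called at 72 h. A weaker set of COX4NB was called higher (0.46, adjusted p 0.0459 by limma, fitted with all probe sets), and its remaining set changed by -0.04 and was not called.

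Between 4 and 24 h 18 of the 82 genes were lower and none higher, against 14.1% of all genes lower and 8.97% higher. ATP5G1 (-0.95 ± 0.15), NDUFV2 (-0.88 ± 0.09) and NDUFB10 (-0.73 ± 0.13) changed most. The count was 8 without 4 h replicate 3 or 24 h replicate 2, 9 without 24 h replicate 1 and 11 without 4 h replicate 2. Between 24 and 72 h 8 were lower and 1 higher, against 4.37% and 4.62% of all genes. The lower ones included NDUFV3 (-0.40 ± 0.13), NDUFA9 (-0.40 ± 0.09) and UQCRC1, and the higher one was NDUFA12L. The call of NDUFV3 was lost in 22 of 40 settings and that of UQCRC1 in 7, among them for both the fits without 24 h replicate 1 or 3 or any 1 array at 72 h. With the experiment number as a block 13 were lower and 1 higher. The count fell to 5 without 24 h replicate 1 or 72 h replicate 1, to 3 without 72 h replicate 2, and to 0 without the 3 arrays the authors marked with r, which leave 1 array at 24 h.

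A test for any change over the 8 times called 42 of the 82 genes (51.2%), beside 47.6% of all genes tested. By complex, it called 21 of 36 in complex I, 1 of 4 in II, 4 of 7 in III, 5 of 13 in IV and 6 of 15 in V. By this test the share was near that of all genes, which also counts genes that rose.

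Many of these genes lie near the top of the array's scale, so they were also split by level. Of the 28 with a mean level of 14 or more, 15 were lower at 72 h, with a median change of -0.15, and of the 54 below 14, 32 were lower with a median of -0.34 (1 was higher). Among all genes tested, 25.3% of the 301 at 14 or more were lower, and 19.8% of the 14628 below 14. The median of all genes tested was 9.70 in untreated cells, and most of the 54 lay above it. The groups below 14 are thus not matched in level. All tested ubiquitous subunits of complex IV had a mean level of 14 or more. All subunits of complex II and most of complex I lay below 14. Differences in median change between complexes thus cannot be told apart from differences in level. For 36 of the 82 genes further probe sets with 1 symbol were tested. Among the 35 such sets of genes called at 72 h, 30 changed in the direction of the chosen set, 16 of them called, and 5 in the other, none of them called at an adjusted p under 0.05 in limma. This leaves out sets of genes not called at 72 h, among them the called sets of COX4I1, COX4NB, ATP5G3 and SDHC given above.

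Genes of the chain outside the name rule were listed from general knowledge, and their counts stand beside the 19.9% of all genes called lower at 72 h and the 20% at 24 h. Of 13 electron carriers and further subunits, 9 were lower and 1 higher at 72 h (69.2% lower), with a median of -0.34. ETFB and ETFA, which feed electrons from fatty acid oxidation into the chain, fell by 1.50 and 0.69, and CYC1, the cytochrome c1 of complex III, by 0.83. HIGD1A, a small membrane protein induced in hypoxia, rose by 0.39. At 24 h the inhibitor of ATP synthase ATPIF1 (-0.69), ETFDH (-0.66) and ETFB (-0.62) changed most, and HIGD1A was again higher, by 0.57.

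Of 23 assembly factors outside the name rule, 6 were lower and none higher at 72 h (26.1%, near the 19.9% of all genes), with a median of -0.22. COX15 and COX11, which serve the haem and copper of complex IV, fell by 1.31 and 0.56, and FOXRED1, for complex I, by 0.68. At 24 h 9 were lower, led by COX15 (-0.71), FOXRED1 (-0.63) and LYRM7 (-0.56), and ATPAF2, for ATP synthase, was higher by 0.72. Of 16 regulators of mitochondrial biogenesis, 3 were lower and 1 higher at 72 h, a share of 18.8% lower near that of all genes. GABPB2, a partner of the ETS factor GABPA, fell by 0.79, the nuclear receptor ESRRA by 0.73 and TFB2M, for mitochondrial transcription, by 0.25, while the mitochondrial DNA polymerase POLG rose by 0.52. At 24 h GABPB2 (-0.75), POLG2 (-0.39) and TFAM (-0.39) were among the 5 lower, and POLG (0.63) and PPRC1 (0.47) were higher.

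Further lists hold genes that supply the chain. Of 18 genes of the tricarboxylic acid cycle and pyruvate dehydrogenase, 12 were lower and none higher at 72 h (66.7%, median -0.45), among them IDH2 (-0.94), FH (-0.88) and PDHB (-0.88), and 6 at 24 h, led by IDH2 (-0.91), FH (-0.78) and SUCLG2 (-0.67). Of 11 genes for coenzyme Q, the ubiquinone that complexes I and II reduce, 8 were lower and 1 higher at 72 h (72.7% lower, median -0.53), among them COQ2 (-0.76), COQ7 (-0.67) and PDSS1 (-0.64), and COQ10B rose by 0.38. At 24 h 8 were lower, led by COQ7 (-0.84), COQ2 (-0.82) and PDSS2 (-0.72), and COQ10B was higher by 0.24. Of 13 mitochondrial carriers and channels, 6 were lower at 72 h (46.2%), with a median of -0.10 over the 13: UCP2, an uncoupling protein, fell by 2.61, the dicarboxylate carrier SLC25A10 by 1.27 and SLC25A11 by 0.96. At 24 h the 3 largest changes were in UCP2 (-1.62), SLC25A10 (-0.97) and the aspartate and glutamate carrier SLC25A12 (-0.51). The adenine nucleotide carrier SLC25A5 (-0.06 ± 0.04) and the phosphate carrier SLC25A3 (0.02 ± 0.04) were not called at 72 h. These lists were not tested against other genes, and no subunit encoded in mitochondrial DNA was read under a single symbol.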

How the data were processed

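RNA of A549 cells was measured on 26 HG-U133 Plus 2.0 arrays with 54675 probe sets. Per the file headers, the authors deposited log10 values of an offset trimmed mean (about 20 percent trimmed) of perfect-match minus mismatch differences, made with readaffy (scale constant 1000), then quantile-normalized. The values were converted to log2, and 1.23% lay at the floor. A second deposited table of log10 values differed by at most 5e-10. The actin value per array is the authors' ratio of 3' to 5' signal, per the file headers. The authors' p-values and fold changes were not used. The number of arrays limits the precision.

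Symbols came from the deposited annotation, and all 87 genes matched a current symbol by gene number. The 9 groups were fitted by lmFit and eBayes of limma 3.58.1, with the trend option and 17 residual degrees of freedom. R was version 4.3.3, and files were read with data.table version 1.17.8. Tests were two-sided. The fit was tested on simulated data. A group's arrays stem from different repeats of the experiment, which the labels number. Deviations from group means correlated with a median r of 0.15 over 100 pairs of arrays with the same number and -0.06 over 200 with different numbers. Untreated replicate 2 correlated with the treated arrays of experiment 3 (median 0.32) more than with those of experiment 2 (-0.20). Untreated replicate 3 correlated with neither (0.03 with experiment 2 and -0.02 with experiment 3). The number was tried as a block, and with untreated replicates 2 and 3 exchanged.

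The genes, lists and tests were chosen with earlier results of these data known. Text names up to 6 called genes each way at 24 and 72 h, up to 3 for other comparisons, all isoform sets and the 3 largest changes each way in each list. Other members were named to describe their complex, after their values were seen. One member is counted in the totals and is not reported here by name.

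Other alternatives were other filters, a second quantile normalization, median centring, an extra offset of 50, robust eBayes, eBayes with no trend, other choices of probe set, a fit of 2 groups at a time, a threshold of 0.01, and leaving out the 3 arrays marked r or each array in turn.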

Additional observations from a re-analysis of the deposited data

Results flagged for a closer look

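Changes against untreated cells that differed between 2 times, tested as the difference between the times in limma, were picked out for 27 genes, 18 at 24 h against 4 h and 9 at 72 h against 24 h. They were falls in 26 and a rise in 1. Between 4 and 24 h the largest differences were in ATP5G1 (-0.95, adjusted p 4.11e-05), NDUFV2 (-0.88, 8.83e-08), NDUFB10 (-0.73), ATP5S (-0.60), NDUFA7 (-0.49), NDUFV1 (-0.47) and NDUFC1 (-0.45). They were smaller in NDUFA2 (-0.38), NDUFB1 (-0.29), NDUFB11 (-0.27), UQCRC2 (-0.23), ATP5C1 (-0.23), COX5A (-0.18), UQCRFS1 (-0.18), COX7B (-0.18), COX5B (-0.17), ATP5B (-0.17) and UQCRQ (-0.16). Of these 18, 8 belong to complex I. They make up 22.2% of its 36 tested genes, near the 22% of all 82.

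Between 24 and 72 h the differences were -0.40 in NDUFV3, -0.40 in NDUFA9, -0.35 in UQCRC1, -0.30 in NDUFB9, -0.28 in NDUFB8, -0.28 in NDUFS4, -0.23 in COX8A and -0.13 in NDUFB2. NDUFA12L differed in the other direction, by 0.52 (adjusted p 0.00588). These 9 rest on the arrays at 24 h, 2 of which the authors marked with r. No group has more than 3 arrays, so single arrays were not screened as outliers.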

How the results depend on the processing

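The count at 72 h (48) moved by less than 1.5 times under each alternative run, between 38 and 51 when 1 array was left out, and was 35 after median centring. At 16 h (25) it was 13 at an adjusted p under 0.01, 15 centred (2 higher, 13 lower), 16 with all sets of a gene averaged and 10 with only the 2 groups compared, and 16 to 27 with 1 array left out. At 24 h (27) it was 14, 14 (3 higher, 11 lower), 17 and 14 under the same settings, and 16 to 38. At 8 h (5) it was 0, 2, 9 and 2, further 2 without the trend and 3 without a filter, and 1 to 8. Between 4 and 24 h (18) it was 8, 9, 11 and 9, further 10 without the trend and 11 without the arrays marked r, and 8 to 25. Between 24 and 72 h (9) it was 5 at 0.01 and 0 without the arrays marked r, and 3 to 12. The test for any change (42) gave 31 to 47, lowest without 72 h replicate 2. The counts of 0 at 0.5, 1, 2 and 4 h and between 4 h and 1 h stayed 0.

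With the experiment number as a replicate block, 14 genes were called between 24 and 72 h, and 15 with untreated replicates 2 and 3 exchanged, which also gave 9 at 8 h. The block called NDUFA4 at 72 h (-0.15), and with the exchange also ATP5G3 (-0.15) and COX6B1 (-0.12). It changed no other named call. Centring moved the median of the tested genes by at most 0.08.

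Of 1556 values of named genes under these settings, 1440 kept direction and call, 106 lost the call, 7 gained it and 3 reversed. ATP5G2 at 72 h became 0.44 and COX4I1 0.18 with all sets averaged, and COX4I1 0.67 with sets ending in _x_at or _s_at avoided. SDHALP2 at 24 h and NDUFV3 between 24 and 72 h lost their call in 22 of 40 settings each. Causes were not tested.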

Other observations

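Some members had a second, weaker probe set with a larger change at 72 h than the chosen one. For UQCRC2 the chosen set changed by -0.39 ± 0.08 and the weak set by -1.50 ± 0.24, and the remaining set by -0.36 ± 0.12. For NDUFB1 the values were -0.35 ± 0.05 and -1.10 ± 0.15. Both weak sets lay at 9.92 and 9.30 in untreated cells. What these sets measure was not tested.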
